A study of Mus musculus with 24 samples.

Results

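The troponin family was followed across 16 RNA-seq libraries from mouse muscle stem cells and the myoblasts grown from them, with and without loss of Chd4. The family is the 8 genes whose symbols name a troponin subunit: Tnnc1, Tnnc2, Tnni1, Tnni2, Tnni3, Tnnt1, Tnnt2 and Tnnt3. They were taken by symbol, whatever their values, from 46078 genes in each of the 2 deposited tables of RPKM (reads scaled to gene length and to the reads of the library). A gene was tested in a table if it reached 0.5 RPKM in at least 4 of the 8 libraries, which held for 7 troponin genes in cultures and for 8 in sorted cells. Tnnc2 was the gene left out of the test in cultures.

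The mice were C57BL/6, 2 to 4 months old. In vitro, primary myoblasts derived from satellite cells of uninjured Chd4fl/fl muscle were grown under proliferative conditions and received an adenovirus for GFP (AdGFP, 4 libraries) or for Cre (AdCRE, 4 libraries), with collection after 72 hours. In vivo, satellite cells were sorted from muscle of Chd4fl/fl mice (4 libraries) and Chd4dPax7ER mice (4 libraries), in both genotypes 3 days after injury with cardiotoxin, a toxin that destroys muscle fibres. The series describes the sorted cells as negative for SCA1 and CD45 and positive for α7-integrin and CD34. Cre was carried by the AdCRE virus only, so an effect of Cre itself and one of Chd4 loss cannot be told apart in the cultures. Pax7ER appears only in the case genotype, and the sources used here do not state whether the Chd4fl/fl mice carried Cre or were given the same agent. Nothing in the labels says that same-group libraries came from separate animals or cultures, so a p-value speaks only of the spread among these libraries. A further 8 ATAC-seq samples were not analysed here.

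Troponin is the calcium switch of the thin filament in striated muscle. Troponin C binds calcium, troponin I holds actin and myosin apart at rest, and troponin T anchors the complex to tropomyosin. Separate genes code for the forms of fast fibres (Tnnc2, Tnni2, Tnnt3), of slow fibres (Tnnc1, Tnni1, Tnnt1) and of the heart (Tnni3, Tnnt2, with Tnnc1 shared between heart and slow fibres), and the genes become active as myoblasts leave the cell cycle and differentiate. Tnnt2 is also made in immature skeletal muscle.

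In the RefSeq annotation of GRCm38.p6, 6 of the 8 genes lie in pairs of a troponin I and a troponin T gene. Tnni1 (chr1:135783033-135810989) and Tnnt2 (chr1:135836315-135852268) were 25325 bases apart. Tnni2 (chr7:142441816-142444410) and Tnnt3 (chr7:142498771-142516213) were 54360 bases apart. Tnni3 (chr7:4518305-4522718) and Tnnt1 (chr7:4504569-4515975) were 2329 bases apart. Tnnc1 (chr14:31208312-31211729) and Tnnc2 (chr2:164777161-164779734) stand alone. Tnnt3 shares 8001 bases with Prr33, listed as a lncRNA, and the use of strand in counting is not stated in the sources used here.

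RefSeq start sites with promoter windows were found for 6 of the 8 genes, in 8 windows (Tnni2 and Tnnt3 have no entry in the table used). The 250 bases before the start of both troponin C genes and of Tnnt1 are shown because Tnnc2 and Tnnt1 were among the 3 troponin genes that rose most in sorted cells, while Tnnc1 and Tnnc2 code for the same subunit and had the most unlike levels in cultures. Each is written 5′ to 3′ on the strand of its gene, from chr14:31208062-31208311 (plus strand), chr2:164779735-164779984 (minus strand) and chr7:4515976-4516225 (minus strand) of GRCm38.p6, in this order. Capitals mark matches on either strand to the E-box CANNTG, to CATTCC or to TATAAA.
Tnnc1: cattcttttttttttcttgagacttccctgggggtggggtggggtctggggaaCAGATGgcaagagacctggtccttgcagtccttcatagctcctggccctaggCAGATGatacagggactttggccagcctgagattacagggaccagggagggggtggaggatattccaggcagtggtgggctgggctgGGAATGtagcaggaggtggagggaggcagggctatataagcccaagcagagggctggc
Tnnc2: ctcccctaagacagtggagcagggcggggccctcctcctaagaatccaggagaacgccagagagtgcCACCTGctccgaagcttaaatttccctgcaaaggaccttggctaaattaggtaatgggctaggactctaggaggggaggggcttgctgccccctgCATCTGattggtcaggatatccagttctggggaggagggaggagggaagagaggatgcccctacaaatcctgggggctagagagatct
Tnnt1: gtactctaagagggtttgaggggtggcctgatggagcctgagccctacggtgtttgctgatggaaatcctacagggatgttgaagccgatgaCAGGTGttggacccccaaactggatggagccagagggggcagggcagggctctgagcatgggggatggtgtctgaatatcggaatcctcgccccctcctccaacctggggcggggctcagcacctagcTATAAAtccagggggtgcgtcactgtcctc

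Both troponin C windows held 2 CANNTG matches each, and the Tnnt1 window held 1. The Tnnc1 window also held CATTCC once, on the opposite strand, and Tnnt1 alone of the 3 held TATAAA. Over all 32851 windows of the same length in the table, CANNTG was found in 66.2%, CATTCC in 12.6% and TATAAA in 12.4%. CAGCTG, a form of CANNTG that overlaps it, occurred in 13.0% of all windows and in none of these 3, but was present in both windows of Tnni1, which overlap, and in 1 of the 2 windows of Tnnt2. The MEF2 site, found in 1.69% of all windows, had no match in any of the 8 troponin windows. A match says only that these letters are present in the window.

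Values summed to 288659 to 326812 RPKM per library in cultures and 286802 to 306114 in sorted cells. Low values in the cultures move in steps of 1 read, and from these the deepest library had 1.64 times the reads of the shallowest. The sorted-cell values are rounded to 2 decimals, so their depth is unknown. The targeted transcript was lower in every case library: Chd4 held 20.8 ± 3.49 RPKM in AdCRE against 75.1 ± 7.75 in AdGFP (SD, n = 4 each; log2 fold change -1.84, limma adjusted p = 0.00374) and 56.7 ± 8.37 in Chd4dPax7ER against 126 ± 6.77 in Chd4fl/fl (log2 fold change -1.16, limma adjusted p = 0.000152). An exact two-sided permutation test gave 0.0286 in each setting, the smallest p that 70 arrangements allow. Exchanged only within same-numbered cultures, the exact permutation p was 0.125, the smallest that 16 arrangements allow. Of the 10 satellite cell and myoblast markers, 10 were tested in sorted cells. Of these, 5 rose and 1 (Pax7) fell, where 14.7% of all tested genes rose and 11.9% fell. The 10 markers summed to 1189 to 1442 RPKM in Chd4dPax7ER against 723 to 910 in Chd4fl/fl.

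Troponin transcripts were higher in sorted Chd4dPax7ER cells than in sorted Chd4fl/fl cells. By limma on log2(RPKM + 0.5), with Benjamini-Hochberg adjustment over 13344 genes, 7 of the 8 genes rose and none fell at an adjusted p under 0.05, where 14.7% of all tested genes rose and 11.9% fell. The rises ran from 1.10 (Tnni2) to 3.36 (Tnnc2) on the log2(RPKM + 0.5) scale, where changes of low genes come out too small, and Tnni3 was the member that did not pass. Higher calls were 55.2% of all calls in this comparison, and 46.4% or 47.3% after rescaling the libraries to a common sum (TPM) or by quantiles, with the same 7 troponin genes higher under both. The groups did not overlap for the same 7 genes, and of all tested genes 30.3% had groups without overlap, in either direction. In these bulk samples, a change in the number of cells of a type and a change in RNA per cell cannot be told apart.

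**Figure D1:**
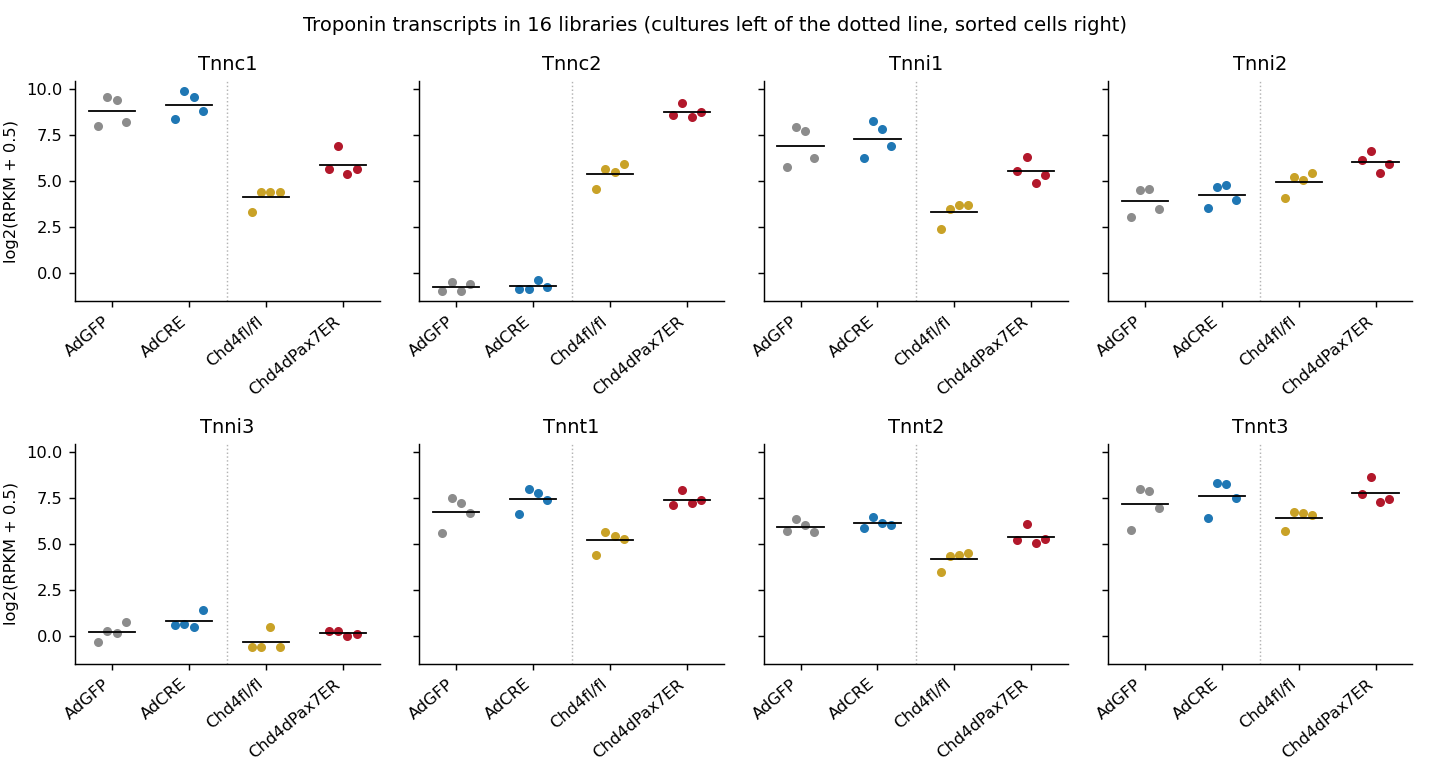
Level of each troponin transcript in every library. The vertical axis is log2(RPKM + 0.5), points are libraries (replicates 1 to 4 from left to right), lines are group means of 4, and the 2 tables were normalized separately. The red Chd4dPax7ER points lie above the yellow Chd4fl/fl points for every gene but Tnni3, and Tnnc2 is near the bottom of the scale in all 8 cultures.

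A troponin C gene had the largest change of the family. Tnnc2 (ENSMUSG00000017300), the fast troponin C, held 23.1, 49.4, 44.4 and 60.7 RPKM in Chd4fl/fl replicates 1 to 4. In Chd4dPax7ER replicates 1 to 4 it held 382, 610, 358 and 432 RPKM. The lowest case library was thus several times the highest control library. The means were 446 ± 114 and 44.4 ± 15.8 (SD, n = 4 each), a log2 fold change of 3.36 (SE 0.28, limma adjusted p = 0.000113), the 15th largest rise of the 13344 genes tested. Tnnc1 (ENSMUSG00000091898), the slow and cardiac troponin C, held 9.40, 20.4, 20.7 and 20.4 RPKM in Chd4fl/fl. Its values in Chd4dPax7ER were 49.5, 121, 41.1 and 49.6 RPKM. Replicate 2 of the case group stood high and replicate 1 of the control group low, with no overlap between the groups. Tnnc1 rose by 1.78 on the log2 scale (17.7 ± 5.54 to 65.2 ± 37.2 RPKM, SE 0.36, limma adjusted p = 0.00675).

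Of the troponin I genes, the slow form rose more than the fast form in fitted size (the difference between them was not tested), and the cardiac form stayed near the floor of the measurement. Tnni1 (ENSMUSG00000026418), slow troponin I, held 4.69, 10.7, 12.6 and 12.3 RPKM in Chd4fl/fl and 46.6, 78.5, 29.4 and 40.2 in Chd4dPax7ER. The lowest case library lay well above the highest control library. The log2 fold change was 2.21 (10.1 ± 3.69 to 48.7 ± 21.1 RPKM, SE 0.35, limma adjusted p = 0.00231). Tnni2 (ENSMUSG00000031097), fast troponin I, held 16.4, 36.8, 33.4 and 42.9 RPKM in Chd4fl/fl and 71.0, 101, 43.7 and 61.4 in Chd4dPax7ER. The groups nearly met, since control replicate 4 and case replicate 3 differed by less than 1 RPKM. Tnni2 rose by 1.10 (32.4 ± 11.3 to 69.2 ± 23.9 RPKM, SE 0.32, limma adjusted p = 0.0311), and this call was lost when Chd4dPax7ER replicate 1, 2 or 4 or Chd4fl/fl replicate 3 was left out (adjusted p = 0.0552 to 0.0740) and without the filter on low values (adjusted p = 0.0601). Tnni3 (ENSMUSG00000035458), cardiac troponin I, held 0.16, 0.16, 0.86 and 0.15 RPKM in Chd4fl/fl and 0.70, 0.69, 0.48 and 0.54 in Chd4dPax7ER. Control replicate 3 lay above all other 7 libraries and the remaining controls lay below every case library, and 3 of the 4 libraries that carried Tnni3 past the filter were case libraries. Its log2 fold change was 0.48 (SE 0.28, limma adjusted p = 0.242), and without that control library it was 0.74 (adjusted p = 0.0467).

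All the troponin T genes rose. Tnnt1 (ENSMUSG00000064179), slow troponin T, held 20.5, 50.1, 42.1 and 38.4 RPKM in Chd4fl/fl and 138, 246, 148 and 166 in Chd4dPax7ER. The groups were far apart, with a log2 fold change of 2.23 (37.8 ± 12.5 to 174 ± 49.4 RPKM, SE 0.27, limma adjusted p = 0.000681). Tnnt2 (ENSMUSG00000026414), cardiac and immature skeletal troponin T, held 10.7, 19.5, 20.3 and 22.4 RPKM in Chd4fl/fl and 36.3, 67.4, 32.1 and 38.1 in Chd4dPax7ER. It rose by 1.22 (18.2 ± 5.18 to 43.5 ± 16.2 RPKM, SE 0.27, limma adjusted p = 0.0108). Tnnt3 (ENSMUSG00000061723), fast troponin T, held 51.1, 107, 102 and 95.9 RPKM in Chd4fl/fl and 212, 406, 153 and 174 in Chd4dPax7ER. It rose by 1.35 (89.0 ± 25.7 to 236 ± 116 RPKM, SE 0.32, limma adjusted p = 0.0148). For Tnnt2 and Tnnt3, as for Tnnc1, case replicate 2 stood well above the other case libraries.

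Across the 7 genes that rose, Chd4dPax7ER replicate 2 was the highest library and Chd4fl/fl replicate 1 the lowest in each. Without these 2 libraries together, an alternative chosen after seeing the data, 6 of the 8 genes passed and Tnni2 did not (log2 fold change 0.61, limma adjusted p = 0.0581). The log2 fold changes were then 2.92 for Tnnc2, 1.78 for Tnnt1, 1.64 for Tnni1, 1.17 for Tnnc1, 0.81 for Tnnt3, 0.76 for Tnnt2 and 0.36 for Tnni3.

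Markers of several other cell types were also higher in the same comparison. Of 9 mature myofibre markers that could be matched, 7 were tested and 5 rose, and they summed to 351 to 586 RPKM in Chd4dPax7ER against 266 to 309 in Chd4fl/fl. Among the matched markers, myoglobin (Mb) rose from 0.880 ± 0.504 to 15.3 ± 12.0 RPKM. Myh2, a fast myosin, was below the filter, at 0.682 ± 0.820 RPKM against 0.00500 ± 0.0100 in the controls. Of the fibroblast and fibro-adipogenic progenitor markers, 3 of 7 tested rose and the sum was 215 to 357 RPKM against 84.8 to 111, with the matrix gene Dcn at 109 ± 32.7 against 10.9 ± 1.81 RPKM. Smooth muscle and pericyte markers rose in 3 of 6 tested (218 to 434 against 116 to 266 RPKM) and Schwann cell markers in 3 of 5 (21.7 to 59.8 against 27.0 to 40.2 RPKM). Endothelial markers rose in 1 of 2 tested (7.74 to 14.2 against 3.62 to 6.85 RPKM), and macrophage and leukocyte markers in 1 of 7, near the 14.7% of all tested genes (83.1 to 180 against 67.3 to 132 RPKM). The part of these cells in the troponin values was not tested. Cardiomyocyte markers were at or near 0: 0 of 8 reached the filter, Nppa, Nppb and Myl7 were listed at 0 in all 8 libraries, and the 8 summed to at most 0.39 RPKM in any Chd4dPax7ER library and at most 0.27 in any Chd4fl/fl library.

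In the cultures, all 7 tested troponin genes were higher in AdCRE than in the AdGFP library of the same number in all 4 pairs, a pattern shown by 25.1% of all 13567 tested genes. The spread between replicate numbers was larger than this difference: for Tnnc1, Tnni1, Tnni2 and Tnnt3, replicates 2 and 3 of both viruses lay above replicates 1 and 4 of both, and the groups overlapped for every gene. Without the pairing, limma called 0 of 7 troponin genes (0 of 7 also at an unadjusted p under 0.05), where 0.516% of all tested genes rose and 0.140% fell. Same-numbered cultures deviated together, and with the replicate number as a block limma called all 7 higher, where 17.5% of all tested genes rose and 18.7% fell.

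Tnnc1 was the most abundant troponin transcript in cultures and held 252, 782, 693 and 299 RPKM in AdGFP replicates 1 to 4 and 336, 962, 767 and 451 in AdCRE. Each AdCRE culture exceeded its partner, by 1.33, 1.23, 1.11 and 1.51 times. The log2 fold change was 0.36 (506 ± 270 to 629 ± 287 RPKM), with SE 0.47 and a limma adjusted p = 0.776 without the block, and SE 0.08 and adjusted p = 0.0101 with it. Tnnc2 was barely detected, at 0, 0.211, 0 and 0.161 RPKM in AdGFP and 0.0422, 0.0489, 0.264 and 0.0821 in AdCRE. In read steps this came to 9 reads over the 4 AdGFP libraries and 10 over the 4 AdCRE libraries, so no change could be measured at this depth.

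Tnni1 held 53.2, 250, 209 and 75.5 RPKM in AdGFP and 75.5, 304, 229 and 120 in AdCRE. Within the pairs AdCRE was 1.42, 1.22, 1.10 and 1.60 times AdGFP (log2 fold change 0.40, limma adjusted p = 0.819, with the block 0.0111). Tnni2 held 7.87, 22.1, 23.0 and 10.5 RPKM in AdGFP and 11.1, 25.3, 27.4 and 15.3 in AdCRE. It was lower than Tnni1 in all 8 cultures, and its within-pair ratios were 1.41, 1.15, 1.19 and 1.47 (log2 fold change 0.36, limma adjusted p = 0.743, with the block 0.00614). Tnni3 held 0.280, 0.679, 0.590 and 1.15 RPKM in AdGFP and 0.997, 1.04, 0.894 and 2.13 in AdCRE. The values stand for 14 to 86 read steps per AdGFP library and 49 to 125 per AdCRE library. Its ratios were 3.56, 1.52, 1.51 and 1.85 (log2 fold change 0.59, limma adjusted p = 0.359, with the block 0.0101).

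Tnnt1 and Tnni3 had the largest fitted changes among troponin genes of the cultures, with Tnnt1 ahead at a pseudocount of 0.5 and Tnni3 ahead at 0.1 (0.86 against 0.69) and with TPM scaling (0.78 against 0.67). Tnnt1 held 48.1, 180, 150 and 101 RPKM in AdGFP and 96.4, 251, 218 and 169 in AdCRE. The ratios within pairs were 2.00, 1.39, 1.46 and 1.68, and the log2 fold change was 0.69 (120 ± 58.0 to 184 ± 67.1 RPKM, limma adjusted p = 0.507, with the block 0.00140). Tnnt2 varied least between cultures, at 51.1, 80.3, 65.0 and 48.7 RPKM in AdGFP and 58.6, 88.7, 69.3 and 65.7 in AdCRE. Its fitted change was small (log2 fold change 0.21, limma adjusted p = 0.636, with the block 0.0285). Tnnt3 held 53.0, 253, 237 and 124 RPKM in AdGFP and 85.3, 321, 309 and 180 in AdCRE. Ratios within its pairs were 1.61, 1.26, 1.30 and 1.45 (log2 fold change 0.48, with the block limma adjusted p = 0.00179). When each pair was left out of the blocked test, 5 to 7 genes passed, and Tnnt2 passed in 1 of these 4 fits. Of all 13567 tested genes, 1555 to 1963 rose and 1602 to 2044 fell in the same fits.

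**Figure D2:**
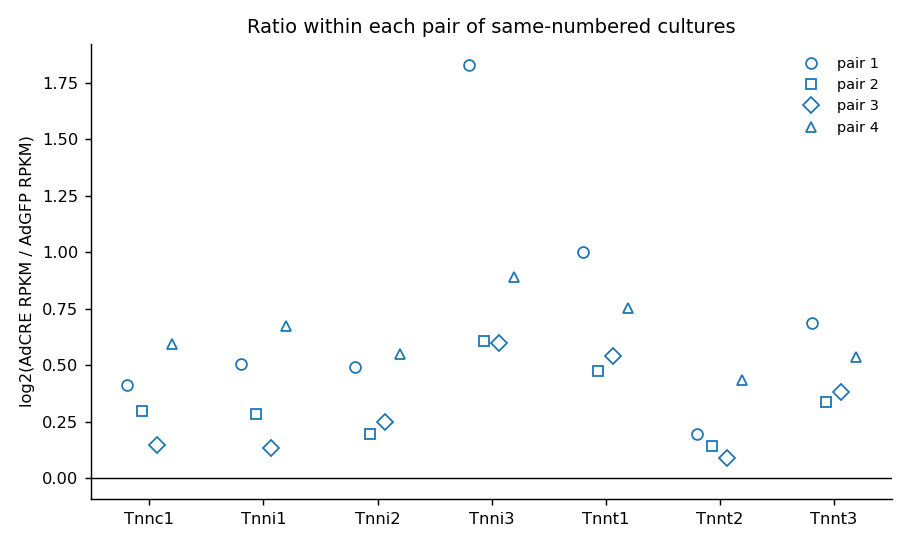
Ratio of AdCRE to AdGFP within each pair of same-numbered cultures, for the 7 tested troponin genes. The vertical axis is the log2 of the RPKM ratio and each symbol is 1 pair. All 28 ratios lie above 0, and pair 1 of Tnni3, at 3.56 times, lies highest.

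The change in sorted cells exceeded that in cultures for 6 of the 7 genes tested in both tables. As a difference of the 2 log2 fold changes it was 1.82 for Tnni1 (SE 0.74), 1.54 for Tnnt1 (SE 0.55), 1.41 for Tnnc1 (SE 0.63), 1.01 for Tnnt2 (SE 0.36), 0.87 for Tnnt3 (SE 0.71), 0.74 for Tnni2 (SE 0.56) and -0.11 for Tnni3 (SE 0.40). In a joint limma fit over the 11941 genes tested in both, none of the 7 passed (adjusted p = 0.129 to 0.925). Tnnc1, Tnni1, Tnnt1 and Tnnt2 had an unadjusted p under 0.05 in it. Of all these 11941 genes, 2.43% passed with a log2 fold change that was more positive in sorted cells than in cultures. The share that passed with the opposite sign is not reported here. The joint fit gives both settings 1 spread. In a z test with the standard errors of the separate fits combined and no block, Tnnt2 (z test adjusted p = 0.0282) and Tnnt1 (0.0365) passed. The z test refers to a normal distribution, where the joint fit uses a t distribution. With so few libraries its p-values come out too small. With the cultures also blocked by replicate number, 5 of the 7 passed the same kind of z test. These were Tnnt1 (z test adjusted p = 2.29e-06), Tnni1 (1.21e-05), Tnnc1 (0.00119), Tnnt2 (0.00276) and Tnnt3 (0.0402). The share of all 11941 genes that passed these z tests is not reported here. The count of calls thus differed with the pairing of the cultures. It also differed between the joint fit and the z test, which are unlike both in the pooling of the spread and in the reference distribution. Tnnc2, which rose most in sorted cells, was below the filter in cultures and has no such test.

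**Figure D3:**
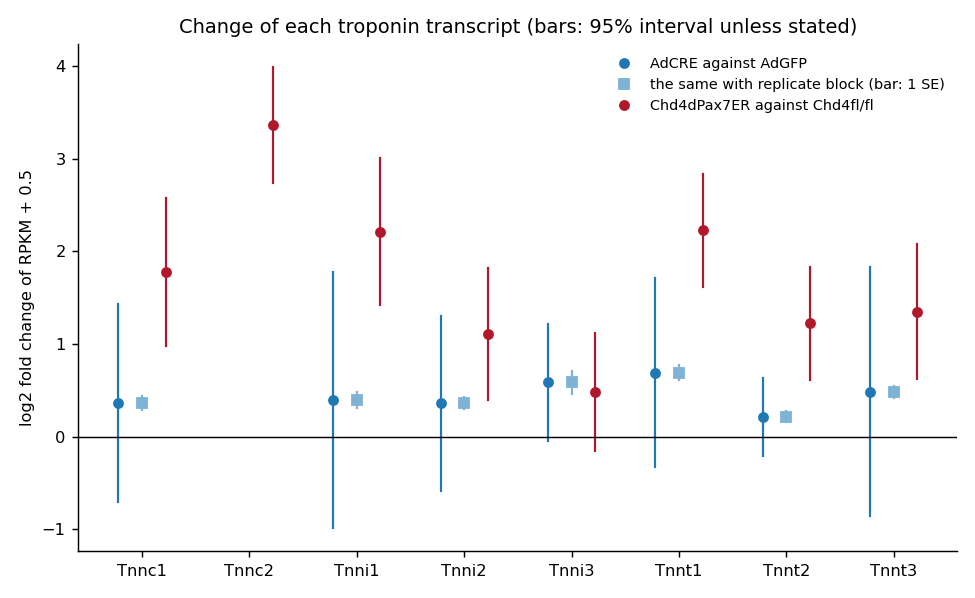
Log2 fold change of RPKM + 0.5 for each troponin gene. Dark blue circles are AdCRE against AdGFP and red circles Chd4dPax7ER against Chd4fl/fl, both with 95% intervals, and light blue squares are the cultures with the replicate block and a bar of 1 SE. Intervals in cultures all include 0 without the block, intervals in sorted cells exclude 0 for 7 of 8 genes, and Tnnc2 has no value in cultures.

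RPKM is per length, so the forms of a subunit can be set side by side within a library. Sorted cells of the 2 genotypes differed in the balance of forms, and cultures with the 2 viruses had like shares of the fast forms. Tnnc2 made up 71.2 ± 2.71% of troponin C transcripts in Chd4fl/fl cells (68.2 to 74.8%) and 87.9 ± 2.97% in Chd4dPax7ER cells (83.5 to 89.7%), against 0.0202 ± 0.0258% in AdGFP and 0.0176 ± 0.0124% in AdCRE cultures. The fast share of troponin I was ordered the other way: Tnni2 was 75.8 ± 3.01% in Chd4fl/fl cells (71.3 to 77.5%) and 58.9 ± 1.93% in Chd4dPax7ER cells (56.0 to 60.1%). Neither pair of ranges overlapped. In cultures Tnni2 was 10.7 ± 2.13% of troponin I with AdGFP and 10.5 ± 2.08% with AdCRE. These shares are a description of each library and were not tested.

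Within troponin T, the fast form Tnnt3 made up 61.5 ± 0.671% in Chd4fl/fl cells and 50.8 ± 5.61% in Chd4dPax7ER cells. The slow form Tnnt1 took 25.8 ± 1.70% and 39.5 ± 5.34%, and Tnnt2 12.7 ± 1.36% and 9.63 ± 0.323%. Replicates 3 and 4 of Chd4dPax7ER had Tnnt1 at 44.4 and 43.9%, and replicates 1 and 2 at 35.7 and 34.2%, all above the highest Chd4fl/fl library at 28.3%. In cultures the Tnnt1 share was 34.1 ± 2.26% with AdGFP and 38.9 ± 1.94% with AdCRE, and Tnnt3 held 45.5 ± 7.69% and 44.8 ± 7.12%. So in sorted cells the case group had a larger fast share of troponin C and smaller fast shares of troponin I and T.

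**Figure D4:**
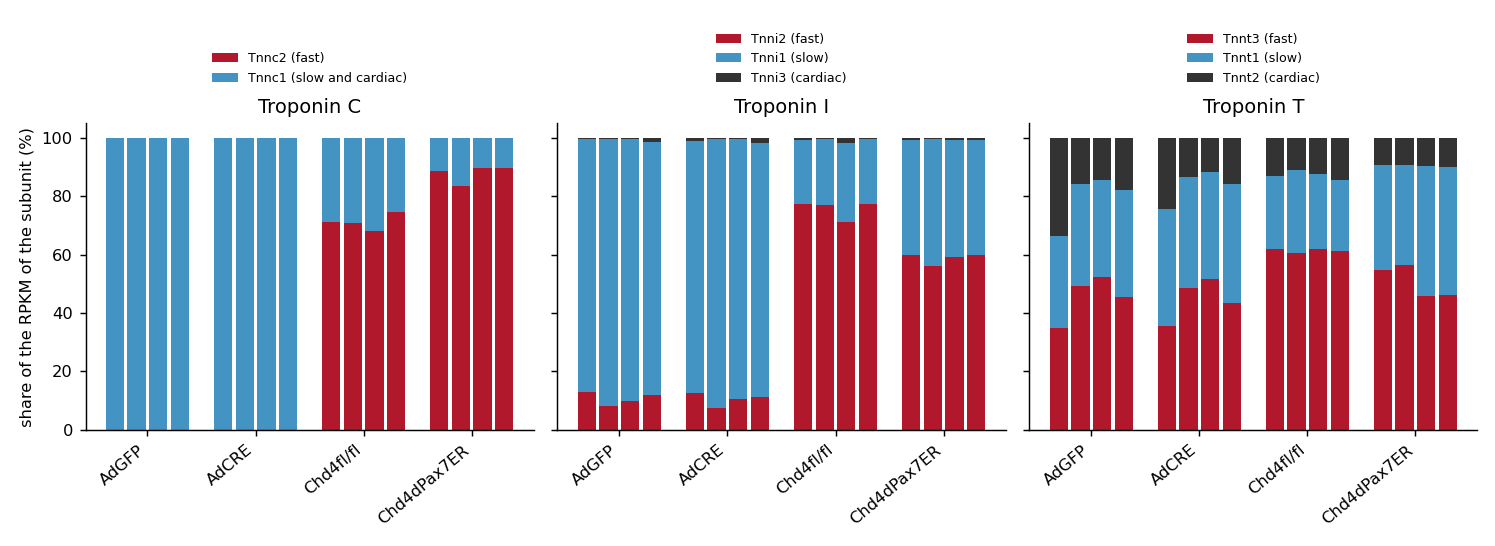
Share of each form within troponin C, I and T, in percent of the subunit's summed RPKM, with 1 bar per library (replicates 1 to 4 from left to right in each group). Red is the fast form, blue the slow form (for troponin C, slow and cardiac) and black the cardiac form. Fast Tnnc2 is nearly absent from cultures and is 83.5 to 89.7% of troponin C in Chd4dPax7ER, where fast Tnni2 is 56.0 to 60.1% of troponin I.

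The balance between subunits also differed. Summed troponin C was 62.1 ± 20.9 RPKM in Chd4fl/fl cells and 511 ± 150 in Chd4dPax7ER cells, troponin I 42.8 ± 14.8 and 118 ± 45.0, and troponin T 145 ± 42.7 and 454 ± 179. Troponin C over troponin I was 1.46 ± 0.0561 in Chd4fl/fl (1.39 to 1.52) and 4.47 ± 0.781 in Chd4dPax7ER (3.65 to 5.43). The ratio of troponin T to troponin I was 3.48 ± 0.456 and 3.87 ± 0.528, and its ranges overlapped. In cultures troponin C over troponin I was 3.35 ± 0.562 with AdGFP and 3.25 ± 0.420 with AdCRE. The C to I ratio of the sorted controls was thus the lowest of the 4 groups, in tables that were normalized separately.

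Levels can be put in order by mean within each group. The ranges used here run over the libraries of a group and do not compare genes inside the same library. In Chd4fl/fl cells the order was Tnnt3, Tnnc2, Tnnt1, Tnni2, Tnnt2, Tnnc1 and Tnni1, in which each neighbour's range overlapped the next, with Tnni3 apart at the bottom. In Chd4dPax7ER cells Tnnc2, Tnnt3 and Tnnt1 formed an upper set in which each range overlapped the next, clear of Tnni2, Tnnc1, Tnni1 and Tnnt2, and Tnni3 was again last. In AdGFP cultures the order ran Tnnc1, Tnnt3, Tnni1, Tnnt1 and Tnnt2 with overlapping neighbours, and then Tnni2, Tnni3 and Tnnc2, each clear of the one before. In AdCRE cultures the range of Tnnc1 lay clear above that of Tnnt3, and Tnnt1 came before Tnni1 with ranges that overlapped. The Tnnc1 and Tnnt3 ranges of AdGFP met only across replicates, at 252 RPKM (Tnnc1, replicate 1) and 253 RPKM (Tnnt3, replicate 2). Inside every culture of either virus, Tnnc1 was above Tnnt3. Thus Tnnc2 was last in both groups of cultures and first in Chd4dPax7ER cells.

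Troponin acts with actin and tropomyosin, and these partners did not move as a block in sorted cells. Of 12 thin filament partners listed, 11 were tested. Of these, 6 rose and 2 fell, where 14.7% of all tested genes rose and 11.9% fell. The median log2 fold change of the partners was 0.69, and that of all tested genes was -0.02. Skeletal actin Acta1 rose by 1.79 (limma adjusted p = 0.00559), the pointed-end cap genes Tmod4 by 2.12 and Tmod1 by 1.23, the leiomodin gene Lmod2, which helps actin filaments form, by 1.15, nebulin (Neb) by 0.99 and Tpm2 by 0.69 (adjusted p = 0.0466). Tmod4 was low, at 0.395 ± 0.338 RPKM in Chd4fl/fl and 3.88 ± 3.24 in Chd4dPax7ER. Other tropomyosin genes went down: Tpm1 fell by 0.64 (137 ± 11.3 to 87.9 ± 10.5 RPKM, limma adjusted p = 0.00181) and Tpm4, a form of non-muscle cells, fell by 0.48 (adjusted p = 0.0277). Tpm3 (0.02), cardiac actin Actc1 (0.22) and Lmod3 (0.47) did not pass, and Nebl was below the filter.

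Beside the counts for each list that follow, 14.7% of all tested genes rose and 11.9% fell in sorted cells. All 8 tested fast fibre genes rose (10 listed, median 1.43), led by the calcium store protein gene Casq1 (10.7 ± 2.41 to 130 ± 64.8 RPKM, log2 fold change 3.45, limma adjusted p = 0.000112) and the fast myosin gene Myh1 (2.03). The list shares Myh1, Myh2, Myh4 and Pvalb with the myofibre markers above. Of 7 tested slow fibre genes (11 listed, median 1.16), 4 rose and none fell, led by Csrp3, a Z-disc protein gene (1.95), and the myosin light chain gene Myl6b (1.66). Among 5 developmental muscle genes (median 0.82), perinatal myosin Myh8 rose by 2.89 and the fetal acetylcholine receptor subunit gene Chrng by 0.73. Of 14 cardiac genes, 1 (Myl4) was tested and did not pass, and 7 were listed at 0 in all 8 libraries. Among 15 myogenic regulators (median 0.26) 6 rose and 3 fell: the myoblast fusion gene Mymk rose by 1.52 and Myf6 by 1.34, while Pax7, the transcription factor that marks satellite cells, fell by 0.85.

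**Figure D5:**
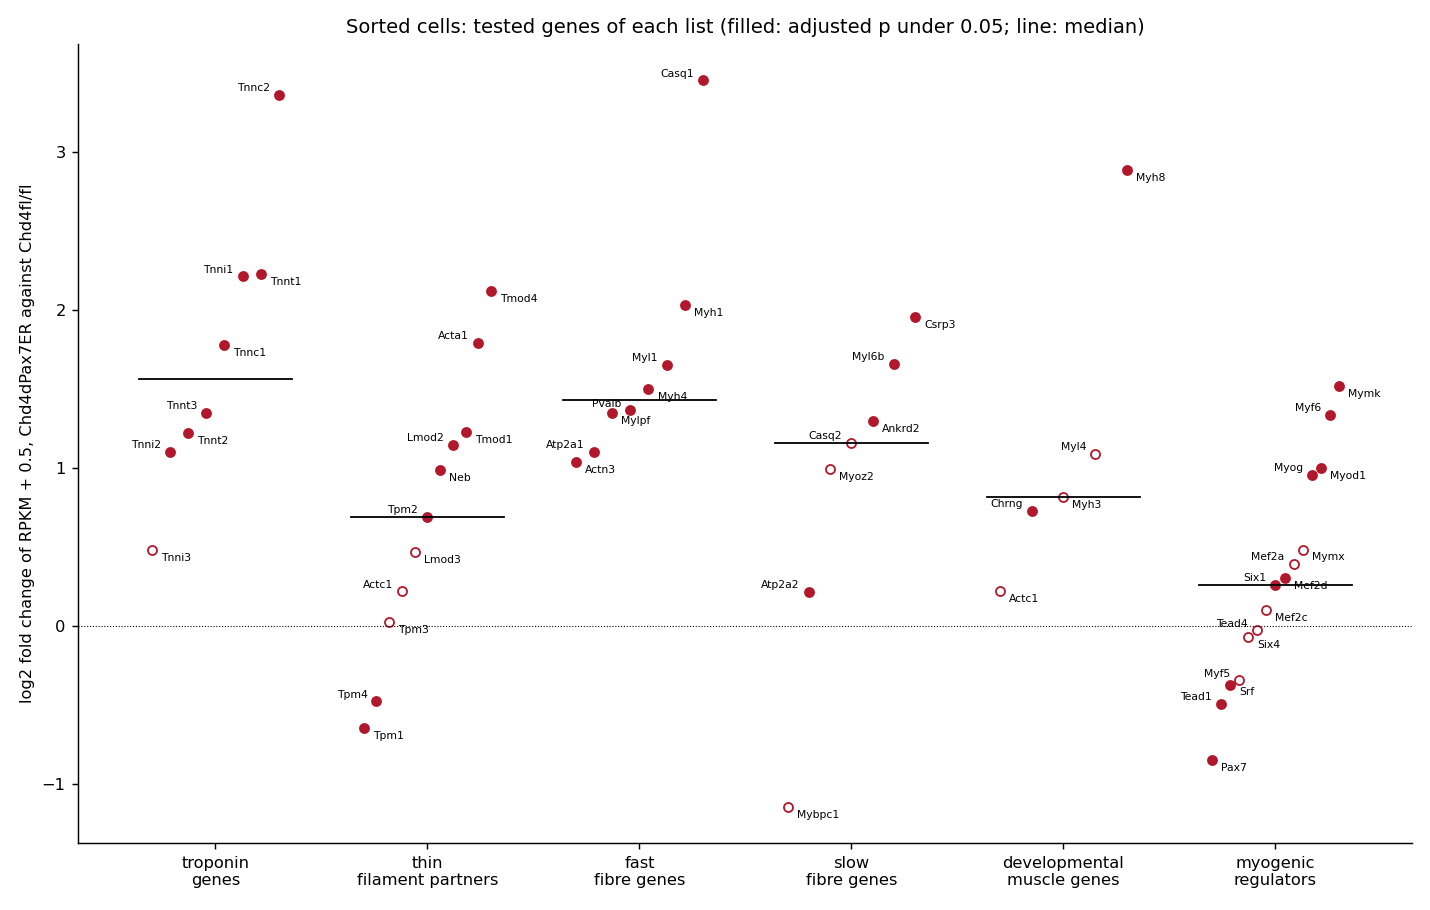
Log2 fold change of RPKM + 0.5 in sorted cells for the tested genes of the troponin family and 5 other lists. Points are genes, filled where the limma adjusted p is under 0.05, and lines are list medians. 7 of 8 troponin genes are filled and above 0, while the thin filament partners spread from Tpm1 at -0.64 to Tmod4 at 2.12.

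In the cultures limma without the block called none of the tested genes of these lists, where 0.516% of all tested genes rose and 0.140% fell. With the replicate block it called 28 higher and 3 lower, where 17.5% of all tested genes rose and 18.7% fell. Myl4 and Actc1 stand in 2 lists each and are counted once in the 28. The blocked calls were 5 higher and 1 lower of 11 thin filament partners, 7 of 9 fast fibre genes higher, 5 of 10 slow fibre genes higher, 5 of 5 developmental genes higher, 2 of 2 cardiac genes higher, and 6 higher and 2 lower of 15 regulators. Tpm4 was the partner that fell, by 0.29 (blocked adjusted p = 0.00294). Myofibre markers (0 of 8 tested passing without the block, 5 higher with it) summed to 318 to 970 RPKM with AdCRE and 272 to 850 with AdGFP. Cardiomyocyte markers (0 of 1 tested passing without the block, 1 higher with it) summed to 12.4 to 31.0 and 11.9 to 27.1 RPKM, nearly all of it Gata4. Macrophage and leukocyte markers, 0 of 3 tested passing without the block and 2 higher with it, summed to 18.8 to 28.8 RPKM with AdCRE and 6.93 to 12.0 with AdGFP. Fibroblast and fibro-adipogenic progenitor markers, 2 of 4 tested higher without the block (with it, 2 higher and 2 lower), summed to 47.4 to 96.6 and 48.8 to 97.1 RPKM. Endothelial markers (0 of 2 tested passing without the block, 1 higher with it) summed to 1.80 to 2.63 and 0.850 to 1.22 RPKM. Schwann cell markers (0 of 1 tested passing without the block, 1 higher with it) summed to 1.87 to 3.99 and 0.921 to 2.45 RPKM. Smooth muscle and pericyte markers (1 of 4 tested higher without the block, 2 with it) summed to 650 to 1064 and 396 to 852 RPKM. The part of such cells in the troponin values of the cultures was not tested.

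Over all 16 libraries, genes close to each troponin gene in pattern were found by the root mean square difference of log2(RPKM + 0.5), each gene centred within its table, among the 11941 genes. Tnnc1 was close to Mylpf (0.20) and Ldb3 (0.20), and Tnnt3 to Ldb3 (0.22) and Acta1 (0.22). For Tnni1 they were Cav3 (0.24), Tnnc1 (0.24) and Acta1 (0.27), and for Tnni2 Synpo2l (0.19), Cacnb1 (0.21) and Neb (0.21). Tnnt1 lay closest to Unc45b (0.27) and Hrc (0.28), and Tnnt2 to Des (0.16), Prob1 (0.17) and Dusp27 (0.18). For these 6 the median difference over all genes was 0.61 to 1.10. Tnni3 differed from the rest of the family by 0.54 (Tnnt2) to 0.98 (Tnni1), above the 0.51 that was its median over all genes. The measure is not scaled for the size of each gene's own spread, which was 0.44 for Tnni3, 0.55 for Tnnt2 and 1.07 for Tnni1. It thus does not separate a different pattern from a different size of change. Of the 21 nearest genes found, 3 for each troponin gene, 14 were kept with a pseudocount of 0.1 and 14 with 1. The libraries share their group structure and depth, so these are descriptions.

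Genes beside the troponin genes were examined to see whether they moved too. Phlda3, 13898 bases from the Tnni1 and Tnnt2 pair, rose in sorted cells from 28.1 ± 4.48 to 65.8 ± 7.03 RPKM (log2 fold change 1.22, SE 0.13, limma adjusted p = 0.000294), and on the other side of the pair Pkp1 did not pass (0.09). Lad1, between Tnni1 and Tnnt2, was below the filter in sorted cells (0.205 ± 0.160 RPKM in Chd4fl/fl and 0.365 ± 0.208 in Chd4dPax7ER). Lsp1, between Tnni2 and Tnnt3, rose by 0.90 (17.8 ± 4.33 to 33.1 ± 4.95 RPKM, limma adjusted p = 0.00785). Outside the Tnni2 and Tnnt3 pair, Syt8 (0.80, limma adjusted p = 0.0752) and Mrpl23 (-0.07) did not pass. Ppp1r12c, 805 bases from Tnnt1, rose by 0.42 (limma adjusted p = 0.0462), and Dnaaf3, 214 bases from Tnni3, was below the filter. Around the troponin C genes, Nisch (0.12), Ube2c (-0.31) and Snx21 (0.18) did not pass and Sema3g was below the filter, so the neighbours of Tnnc2 did not share a call with it. In cultures no neighbour that was tested passed without the block.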

How the data were processed

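Total RNA was sequenced in 16 libraries, and the deposited RPKM values come in 1 table for the cultures and 1 for the sorted cells, each with 8 libraries. The submitters' processing notes name HISAT2 2.1.0 and cutadapt 1.18 among other tools, and mm10 and GRCm38 as builds. How the authors used each tool for these RPKM values, the counting program, its use of strand and the lengths were not given in the sources used here.

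Genes with at least 0.5 RPKM in at least 4 of 8 libraries were tested (13567 in cultures, 13344 in sorted cells). Each table was fitted on its own with limma 3.58.1 (R 4.3.3) on log2(RPKM + 0.5), with a variance trend, and p-values were adjusted by Benjamini-Hochberg over all genes tested, with a threshold of 0.05. SE is the moderated standard error. The script was tested on simulated data. Deviations of same-numbered libraries from their group means correlated at 0.711 to 0.856 in cultures, where the replicate number therefore pairs the libraries, and at -0.0967 to 0.0499 in sorted cells, where it does not. Blocked values are given beside results in cultures only.

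The troponin genes and the other gene lists were chosen with earlier results of these data known, so no p-value is given for a list. Genes were named by rule: all 8 troponin genes, all thin filament partners, in each other list the 2 largest rises and the largest fall among genes that passed, the 3 most alike patterns (some of these genes are not reported here) and the nearest coding neighbours. Mb, Myh2 and Dcn of the marker lists, Gata4 and Myl4 were named after their values were seen. Pygm is listed under 2 identifiers and was left out of the myofibre markers. Sequences and positions are from RefSeq, build GRCm38.p6. Alternatives tried were other pseudocounts (0.1 and 1), no filter, TPM and quantile scaling, no variance trend, the replicate block and leaving out libraries.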

Additional observations from a re-analysis of the deposited data

Results flagged for a closer look

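The 44 sets of 4 libraries examined were each troponin gene and the fast share of each subunit, in each group. Of these, 6 had 1 library set apart from the other 3 by more than Dixon's 95% critical value. Chance alone passes that value in about 1 of 20 sets. Tnnc1 was low in Chd4fl/fl replicate 1, at 9.40 RPKM, and high in Chd4dPax7ER replicate 2, at 120.73 RPKM. Tnnt2 was high in the same Chd4dPax7ER library, at 67.4 RPKM. Cardiac Tnni3 was high in AdCRE replicate 4, at 2.13 RPKM, and in Chd4fl/fl replicate 3, at 0.86 RPKM. In that Chd4fl/fl library the fast share of troponin I was also the lowest of its group, at 71.3%.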

How the results depend on the processing

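In sorted cells, 7 troponin genes passed as reported, and 5 to 7 under the 20 alternatives, with all 160 values for single genes higher in Chd4dPax7ER. Of all 13344 tested genes, 1960 rose and 1588 fell as reported. The replicate block, which does not pair these libraries, left 7 troponin genes (all genes: 1694 rose, 1184 fell). Leaving out same-numbered libraries under the block left 5 to 7 (all genes: 892 to 1160 rose, 392 to 666 fell). Leaving out 1 library, or Chd4dPax7ER replicate 2 together with Chd4fl/fl replicate 1, left 6 to 7 (all genes: 1369 to 1754 rose, 929 to 1436 fell). The listed genes that passed were 31, 24 to 32 with libraries left out, and 12 to 21 with the block and a same-numbered pair left out (13, 12 and 19 without replicates 1, 2 and 3), where fewer libraries enter the fit.

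In cultures, 0 troponin genes passed as reported and without each library in turn, 7 passed with the replicate block and 5 to 7 with the block and 1 pair left out. For the listed genes these counts were 0, 31 and 20 to 30. Without each library in turn, 14 to 40 of all 13567 tested genes rose and 2 to 4 fell. With the block and 1 pair left out, 1555 to 1963 rose and 1602 to 2044 fell. All 133 alternative values for single genes were higher in AdCRE. Tnnc2 has none, since it was tested in cultures only without the filter.

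The difference between settings passed for 0 genes in the joint fit. With 1 library left out of that fit it passed for 0 to 1 genes (Tnnt1, limma adjusted p = 0.0379, without AdGFP replicate 1). By the z test it passed for 2 (Tnnt1 and Tnnt2) from the separate fits and for 5 with the replicate block in cultures. For Tnni3 that difference, -0.11, turned to 0.11 with a pseudocount of 0.1 and to 0.041 with TPM scaling, and ran from -0.29 to 0.16 with 1 library left out. The cause of these shifts was not tested. Chd4 passed in the same direction under every alternative run in both settings. Relative depth is known only in cultures, and the 2-decimal rounding limits Tnni3 in sorted cells.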
